A study of Mus musculus with 4 samples.

Results

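The miR-130 and miR-301 family in mouse was read here through the members miR-130a, miR-130b, miR-301a and miR-301b. Their 4 probes were taken by exact probe name, without star strands, from the 700 miRNA probes of a 2-colour array. The array was hybridised with total RNA of HC11 cells, an established line of mouse mammary epithelial cells that can be held in a proliferating, stem-like stage or driven to differentiate with lactogenic hormones. Differentiated cells had been kept without epidermal growth factor (EGF) in 2% fetal bovine serum (FBS) for 48 h and then received 100 nM dexamethasone and 1 µg/mL ovine prolactin for 72 h. Proliferating cells had grown in medium with 10% FBS, EGF, insulin, L-glutamine and gentamicin and were collected after 48 h, and the labels do not restate the last 3 for the differentiated cells. Each stage had 2 samples. Differentiated replicate 1 (Cy5) and proliferating replicate 1 (Cy3) were taken as the channels of array 1, and differentiated replicate 2 (Cy3) and proliferating replicate 2 (Cy5) as those of array 2, where the dyes were swapped. The labels do not say that the replicates were separate cultures of this single line, so the spread between arrays may be technical. With 1 array per dye orientation, a dye effect and a difference between replicates cannot be told apart. The family was chosen with the stage difference of its members already known, so the ratios between stages are given as descriptions. Where a fit across all probes called a member, the call is part of that description and is no support for a difference.

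MicroRNAs guide Argonaute proteins to messenger RNAs, and pairing of the seed, bases 2 to 8 of the miRNA, to a site in the message largely sets which messages are repressed. Members of the family share 1 seed and therefore many predicted targets. In human and mouse cells the family is known to repress Pparg, the nuclear receptor that drives fat cell formation. In human breast cancer cells miR-301a is known as a miRNA that promotes growth.

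The target sequences that the deposited scanner tables give for the members show what the probes had to tell apart. They are printed 5′ to 3′ with the seed in capitals, together with that of miR-721, the remaining probe among the 5 on the array with this seed.

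mmu-miR-130a: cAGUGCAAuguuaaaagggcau

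mmu-miR-130b: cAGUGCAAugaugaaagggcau

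mmu-miR-301a: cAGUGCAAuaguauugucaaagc

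mmu-miR-301b: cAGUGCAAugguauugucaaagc

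mmu-miR-721: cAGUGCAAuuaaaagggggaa

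The members fell into 2 close pairs. miR-130a and miR-130b differed at 2 bases, U11A and A13G, and miR-301a and miR-301b at 1 base, A10G, with positions counted from the 5′ end of the miRNA and the base of the first-named member given first. Between the pairs 9 or 10 edits separated the sequences. A probe for 1 member of a pair may therefore also bind the other, which was not tested, and every miR-130a spot lay next to a miR-130b spot on the array (5 of 5), as every miR-301a spot did next to a miR-301b spot (5 of 5). Outside the seed family, the closest array target was miR-1960, at 6 edits from miR-130a and 7 from miR-130b, and miR-33, at 9 edits from both miR-301a and miR-301b.

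In RefSeq annotation of GRCm38.p6, 3 of the 4 members had an identical mature entry, and miR-301b lay within its annotated hairpin. Of the 7 mature entries there with this seed, miR-130c, miR-6341 and miR-6389 had no probe among the 5 on the array with the seed. Mature miR-130a comes from the minus strand at chr2:84741116-84741137 (gene Mir130a), and its hairpin overlapped no other listed gene. Mature miR-130b comes from the minus strand at chr16:17124071-17124092 (gene Mir130b). The miR-301b hairpin lies 257 bases from the miR-130b hairpin on the same strand, at chr16:17124400-17124496 (gene Mir301b), and both overlap the protein-coding gene 2610318N02Rik. Mature miR-301a comes from the plus strand at chr11:87113054-87113076 (gene Mir301), where its hairpin overlaps Ska2, which encodes a component of the spindle and kinetochore complex.

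The 4 channels differed in brightness before any scaling. Empty spots averaged 39.1 and 288 intensity units in differentiated replicates 1 and 2, against 152 and 86.2 in proliferating replicates 1 and 2. The margin that a spot had to exceed over its local background, set from the mean and 3 SDs of empty spots, was 7.75 and 157 units in the differentiated samples and 13.2 and 53.7 units in the proliferating samples. A probe was called detected where at least 3 of its 5 spots passed that margin, which held for 187 and 165 of the 700 probes in differentiated samples and for 203 and 138 in proliferating samples. Unscaled intensities are therefore given as the channels hold them, and are not by themselves a difference between stages.

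miR-130a was the member with signal in every sample. Its mean over 5 spots, after subtraction of the local background, was 27.6 and 252 units in differentiated replicates 1 and 2, against 181 and 246 units in proliferating replicates 1 and 2. The SD between its spots was 7.63 and 35.2 units in differentiated samples and 36.2 and 31.6 units in proliferating samples. Before scaling, the stages overlapped, and only differentiated replicate 1 was low. All 5 spots passed the detection margin in each of the 4 samples, by the mean at 3.57 and 1.61 times the margin in differentiated samples and at 13.7 and 4.59 times in proliferating samples. The margin of differentiated replicate 2, the channel with the brightest empty spots, was thus the one that miR-130a cleared most narrowly.

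Within the probe, the same spot was the brightest in all 4 samples, at 37.7 and 296 units in differentiated samples and 234 and 285 units in proliferating samples.

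miR-130b was detected in proliferating replicate 1 only. Its mean over background was 5.00 and 24.6 units in differentiated samples, against 27.2 and 32.1 units in proliferating samples. The higher of the proliferating values belonged to a channel whose margin it did not reach, and no spot passed the margin in differentiated replicate 2 or proliferating replicate 2, against 1 of 5 spots in differentiated replicate 1 and 5 of 5 in proliferating replicate 1.

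miR-301a was likewise detected in proliferating replicate 1 only, where 3 of its 5 spots passed, and in no sample where all 5 were required. Its mean over background was -0.0278 and 33.4 units in differentiated samples, against 14.4 and 39.8 units in proliferating samples. In differentiated replicate 1 its spots lay around the background, between -1.54 and 1.40 units. On array 2 the ranges of its unscaled spots overlapped, at 15.5 to 57.2 units in the differentiated channel and 32.3 to 49.9 units in the proliferating channel, while compared spot by spot 4 of 5 were lower in the differentiated channel.

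miR-301b was detected in no sample, and none of its 20 spots over the 4 channels passed the margin. Its mean over background was 1.69 and 20.2 units in differentiated samples, against 2.93 and 16.2 units in proliferating samples. miR-721, with the same seed, was also detected in no sample, at 4.03 and 49.7 units in differentiated samples and 8.54 and 13.8 units in proliferating samples. For both, the data give a limit of detection and not a level. The star strand of miR-130b was detected in no sample either.

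**Figure D1:**
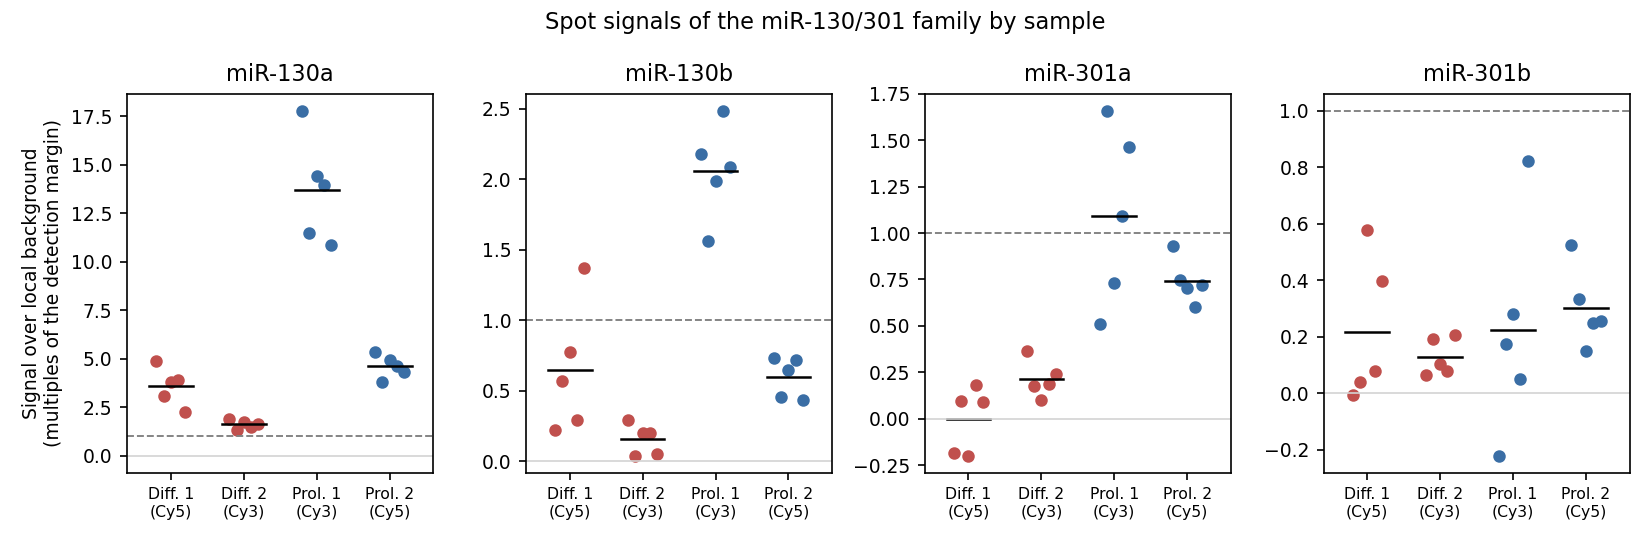
Spots of the 4 members in each sample, as intensity over the local background divided by that sample's detection margin, with differentiated samples in red, proliferating samples in blue, bars at the mean of 5 spots and a dashed line at the margin. All spots of miR-130a lie above the line, as do 5 of 5 spots of miR-130b and 3 of 5 of miR-301a in proliferating replicate 1 and 1 spot of miR-130b in differentiated replicate 1, and no spot of miR-301b does.

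After background correction and scaling to the miRNA probes by loess (a smooth fit of the ratio on brightness within each array), the log2 level of miR-130a was 7.12 and 7.23 in differentiated replicates 1 and 2, against 8.32 and 8.42 in proliferating replicates 1 and 2. The levels did not overlap between stages, and within a stage they lay closer together than the stages did. They are built from the scaled ratio of each array with brightness matched between arrays, so they are no evidence separate from the ratios. The log2 ratio of differentiated over proliferating was -1.20 on array 1 and -1.18 on array 2, a mean of -1.19 ± 0.01 (SD, n = 2 arrays). With this background correction and this scaling to the miRNA probes, miR-130a was thus 2.29-fold lower in differentiated cells. Its 5 spots gave ratios of -1.31 to -1.11 on array 1 and -1.27 to -1.08 on array 2, each with an SD of 0.07. All 10 spots lay below 0. Each array value is a mean of 5 spots and there were 2 arrays, so the SD between arrays is not comparable with that between spots.

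Tested probes were those that both samples of 1 stage or the other detected, 172 in all. Of the 4 members, miR-130a was the only one among the 172 probes that entered the fit across all probes (limma, Benjamini-Hochberg adjusted p under 0.05), and it was called lower. In that fit 29 probes were called higher and 23 lower in differentiated cells, so 30.2% were called in either direction and 13.4% were called lower. As the family was chosen from this contrast, nothing is read from that count or from a call of miR-130a, here or under the settings below. The same holds for 2 other fits: without the array as a block miR-130a was called lower, as were 15.7% of probes (34.3% in either direction), and with all 700 probes tested it was again the only member called, where 1.86% were called lower and 4.86% in either direction. The ratio of miR-130a was the 21st lowest of the 172, where the median of all tested probes was 0.11 and the median of the other probes called lower was -1.85.

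The members near or below the margin had ratios closer to 0 on the same log2 scale. miR-130b stood at -0.25 on array 1 and -0.51 on array 2 (mean -0.38 ± 0.18, SD, n = 2). miR-301a stood at -0.18 and -0.59 (mean -0.39 ± 0.30), and miR-301b at 0.03 and -0.21 (mean -0.09 ± 0.17). miR-130b and miR-301a were thus negative on both arrays and miR-301b on array 2 only. The size of these dim ratios depended on the background correction, as did that of miR-130a. With the normexp offset at 16 in place of 50, the means were -0.62 for miR-130b, -0.62 for miR-301a and -0.13 for miR-301b. Plain subtraction with a floor of 10 units, which changes the correction itself as well, gave -0.83 and -2.05 on arrays 1 and 2 for miR-130b, -0.19 and -2.08 for miR-301a (SD 1.34) and -0.0021 and -1.01 for miR-301b (SD 0.71). The arrays then differed by more than the mean for miR-301a and miR-301b. In differentiated replicate 1 the highest spots of miR-301a and miR-301b, at 1.40 and 4.48 units, lay below that floor. Most miR-130b spots there did too. On array 1 the floor thus stood in for their differentiated signal, and the difference between arrays is not a measured one. For miR-130a the mean was -1.05 with no local background and -1.49 ± 0.27 with the offset of 16. Plain subtraction gave miR-130a -2.53 and -1.67 on arrays 1 and 2 (mean -2.10, SD 0.61). As miR-130b and miR-301a were detected in 1 sample each and miR-301b in none, no fold is given for these 3 members.

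**Figure D2:**
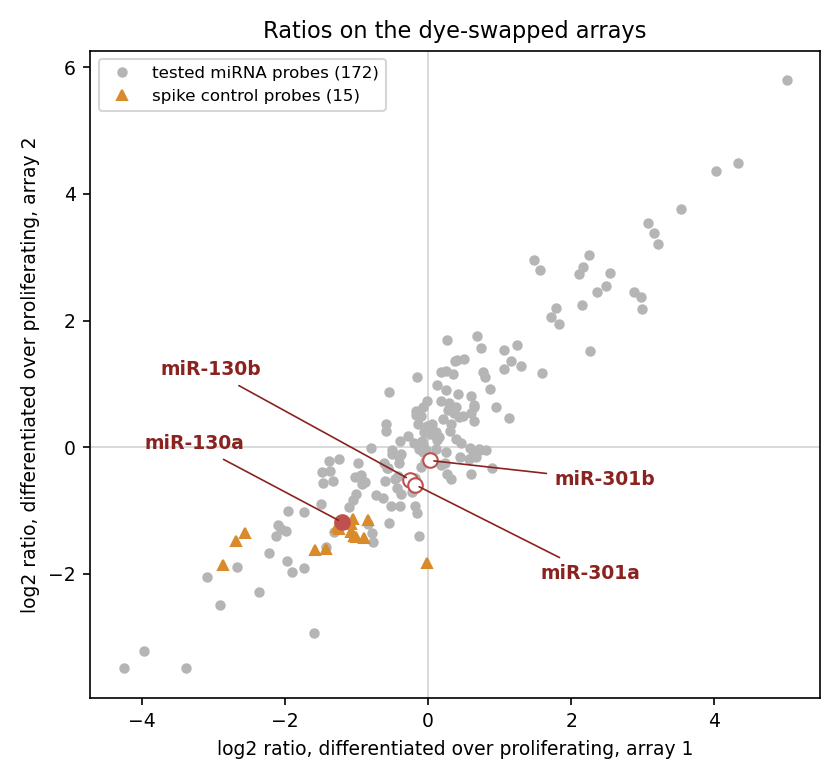
Log2 ratio of differentiated over proliferating on array 1 (horizontal) and array 2 (vertical), scaled to the miRNA probes, for the 172 tested probes in grey, the 15 spike controls as orange triangles, miR-130a as a filled red circle and the 3 untested members as open red circles. miR-130a, at -1.20 and -1.18, lies among the spike controls, and the other members lie closer to 0.

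The authors' deposited value table, their own processing of the same arrays, gave miR-130a values of 56.6 and 73.6 in differentiated samples, against 281 and 337 in proliferating samples. Its log2 ratios were -2.31 and -2.20 on arrays 1 and 2, a mean of -2.25, so the stages did not overlap there and the difference was larger than that from the scanner values after the offset. A fit of those values called 32.6% of the 172 probes lower, miR-130a among them, and 60.5% in either direction. For miR-130b the deposited values were 22.5 and 13.1 in differentiated samples, against 46.8 and 28.3 in proliferating samples, a mean log2 ratio of -1.08 ± 0.03 (SD, n = 2). For miR-301a they were 5.87 and 15.4 in differentiated samples, against 25.2 and 35.9 in proliferating samples, a mean of -1.66 ± 0.62. These 3 members were lower in both differentiated samples than in either proliferating sample. miR-301b, at 12.3 and 13.6 in differentiated samples and 9.83 and 20.7 in proliferating samples, overlapped between stages and had ratios of 0.33 and -0.61. How that table was scaled and centred is not known, and its dim values carry no detection call.

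**Figure D3:**
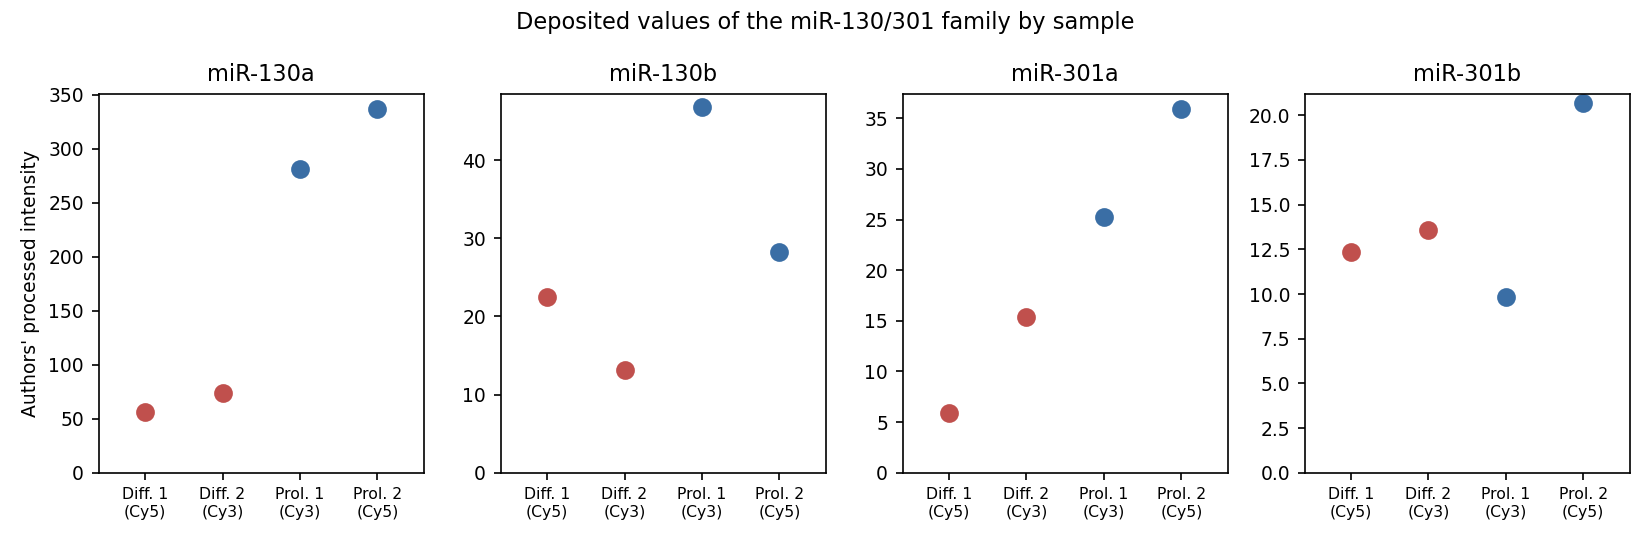
The authors' deposited intensity of each member in differentiated (red) and proliferating (blue) samples, with the dye in brackets and a separate vertical axis per member that starts at 0. miR-130a, miR-130b and miR-301a have both differentiated samples below both proliferating samples, and miR-301b does not.

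The direction of the miR-130a difference depended on what was held constant between stages. Scaling to the miRNA probes sets the bulk of the 700 miRNA probes, detected or not, to no change. When that was done with 1 median per array in place of the loess, miR-130a stood at -1.24 on array 1 and -0.46 on array 2 (mean -0.85) and was no longer called, and the calls over all probes were 47 higher and 13 lower. The tested probes then had a median of 0.18 on array 1 and 0.74 on array 2, so they were not held at no change. The array also carried control probes that the scanner tables name as spikes, for RNAs added by the experimenter in amounts the labels do not state, and 15 of them were detected in all 4 samples. Several of the 15 probes share a name stem (PUC2 or Ctr09), so they need not stand for 15 separate RNAs. After scaling to the miRNA probes these spikes were themselves lower in the differentiated channels, with ratios of -2.87 to -0.02 (median -1.07) on array 1 and of -1.86 to -1.14 (median -1.40) on array 2. On array 1, 7 of the 15 spike probes had a lower ratio than miR-130a, and on array 2, 13 of the 15. miR-130a thus lay within the range of the spikes on both arrays.

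Centring on the spike median instead placed miR-130a at -0.13 on array 1 and 0.22 on array 2, a mean of 0.044, so the arrays differed in sign. On that scale 117 probes were called higher and 8 lower, or 72.7% in either direction and 4.65% lower, and the median of the 172 tested probes moved to 1.35. miR-130a was not among the calls. With the offset of 50 and the loess, the members near or below the margin turned positive on that scale. Their means were 0.86 ± 0.05 for miR-130b, 0.85 ± 0.07 for miR-301a and 1.14 ± 0.06 for miR-301b (SD, n = 2 arrays). Centring adds the same shift to every probe of an array, whether it was detected or not. Centring on the mean of the spikes gave 0.21 for miR-130a, and centring on the 5S ribosomal RNA probes gave -0.80 and 0.09, a mean of -0.36.

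The value relative to the spikes also moved with the offset and the loess. With plain subtraction and spike centring, miR-130a stood at -1.03 on array 1 and -0.16 on array 2. With plain subtraction, spike centring and no loess it stood at -1.85 and 0.08. The dim members moved too. Spike centring without loess gave means of 0.232 for miR-130b, 0.273 for miR-301a and 0.499 for miR-301b. Plain subtraction with spike centring gave 0.066 ± 0.853, 0.374 ± 1.326 and 1.001 ± 0.701 in that order (SD, n = 2 arrays). With both changes miR-130b turned negative, at -0.509, beside 0.027 and 0.568. All stayed positive with an offset of 16 or the mean of spikes. No increase is read from these means. Expressed as a percentage of the median spike signal of its own sample, miR-130a was 0.813% and 2.83% in differentiated replicates 1 and 2, against 2.45% and 3.07% in proliferating replicates 1 and 2, so the stages overlapped. Expressed as a percentage of the mean miRNA signal, it was 3.34% and 17.9% in differentiated samples, against 32.8% and 44.5% in proliferating samples, with no overlap. The corresponding log2 ratios of differentiated over proliferating were -1.59 and -0.12 on arrays 1 and 2 against the spikes, and -3.30 and -1.32 against the mean of the miRNAs. Array 2 thus showed almost no difference against the spikes, and a difference on both arrays appeared against the other miRNAs.

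In unscaled units the mean miRNA signal was the brighter in the differentiated channel of both arrays, and the median spike signal in that of array 2 only. The mean miRNA signal over background was 828 and 1410 units in differentiated samples, against 551 and 553 units in proliferating samples. The median spike signal was 3402 and 8893 units in differentiated samples, against 7387 and 8017 units in proliferating samples. Before any scaling, miR-130a was lower in the differentiated channel in 5 of 5 spots on array 1 and in 1 of 5 on array 2. After scaling to the miRNA probes it was lower in 5 of 5 spots on each.

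Over 18 settings that change the background, the scaling or the values used, the mean ratio of miR-130a ran from -2.25 to 0.21. The mean was negative in 16 settings, and the ratio was negative on both arrays in 11. With spike centring and no loess, for example, it stood at -0.72 on array 1 and 0.17 on array 2. The mean ratio of miR-130b was negative in 12 of the 18 settings, and those of miR-301a and miR-301b in 11 each, while both arrays were negative in 11 settings for miR-130b, 10 for miR-301a and 1 for miR-301b. Centring moves all probes of an array alike and cannot change the gap between miR-130a and the median of the tested probes, so the 18 settings gave 11 distinct gaps, of -2.25 to -1.14 on the log2 scale.

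**Figure D4:**
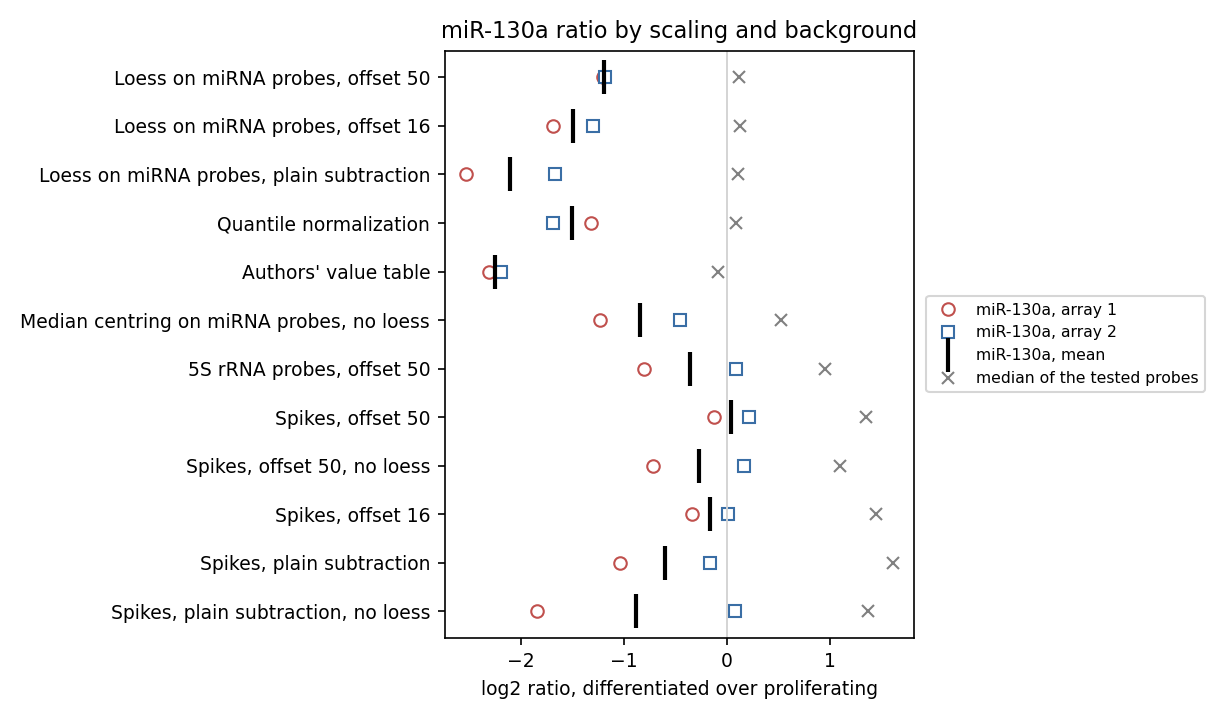
Log2 ratio of differentiated over proliferating for miR-130a on array 1 (circles) and array 2 (squares) under the named backgrounds and scalings, with black bars at the mean and crosses at the median of the 172 tested probes under the same setting. With an offset of 50 and loess, miR-130a lies at -1.19 on average when scaled to miRNA probes and at 0.044 when centred on spikes. The other scalings to miRNA probes shown average -2.10 to -0.85, and the other spike scalings shown -0.88 to -0.16. The gap to the median is fixed wherever settings differ in centring alone.

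The 5 tested probes whose pattern over the 4 samples lay closest to that of miR-130a (Euclidean distance between log2 levels, each minus the probe's own mean, among 171 probes) were miR-805 at a distance of 0.350, miR-15b at 0.355, miR-206 at 0.377, miR-2142 at 0.392 and miR-421 at 0.446. Their mean log2 ratios were -1.33, -1.50, -1.02, -1.07 and -1.13 in that order and all were negative, as the rule for choosing them makes likely. With spike-centred levels 2 of the 5, miR-206 and miR-421, were again among the closest 5.

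Outside the family, miR-27a and miR-27b are also known to repress Pparg, and both were among the tested probes. Their log2 ratios of differentiated over proliferating were -0.71 ± 0.75 and -0.02 ± 0.11 (SD, n = 2 arrays), with a median of -0.37 beside 0.11 over all tested probes, and neither passed the test. After spike centring the median of the pair was 0.87 beside 1.35 over all tested probes, and 1 of the 2 was called higher, as were 68% of all tested probes.

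Markers of the labelled cell type and of others were read beside the family. The epithelial miRNAs (miR-200 family, miR-203 and miR-205) were detected in 6 and 6 of 7 probes in differentiated samples and in 5 and 4 in proliferating samples, with an unscaled summed signal over background of 18402 and 44601 units in differentiated samples against 5793 and 5159 units in proliferating samples. Of the 6 that were tested, 3 were called higher, beside 16.9% of all tested probes, and after spike centring 6 were, beside 68%. Neither endothelial miR-126 probe was detected in any sample. Of 6 blood miRNAs only miR-486 was detected, in replicate 1 of both stages. Of 5 mesenchymal miRNAs, miR-143 and miR-145 were detected in both differentiated samples and none in proliferating samples, with unscaled sums of 108 and 695 units in differentiated samples against 31.7 and 65.4 units in proliferating samples. Of 3 muscle miRNAs, miR-206 was detected in 1 of 2 differentiated and 2 of 2 proliferating samples, with unscaled sums for the 3 of 17.8 and 142 units in differentiated samples against 102 and 139 units in proliferating samples. As the channels differ in brightness, these sums show no difference between stages by themselves. The part of these markers in the miR-130a difference was not tested, and fewer cells of a type and less RNA per cell cannot be told apart in bulk RNA.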

How the data were processed

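For each sample the deposited scanner table holds, per the file headers, mean intensity and SD of 3968 spots in 1 dye, without a background column. Of these, 3500 spots belong to 700 miRNA probes (5 each) and 468 to controls, 180 of them empty. Per the labels' protocols, LC Sciences size-selected the small RNAs, added a poly(A) tail and a tag, and stained it with Cy3 or Cy5. The authors also deposited a table of processed intensity for the same probes, with medians of 15.1 and 13.9 in differentiated and 13.9 and 13.6 in proliferating samples. Its columns matched their own samples best (r 0.985 to 0.997). Its scale and centring are unknown, and the stage of each column follows the labels. No source used here names the image software.

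The local background of a spot was the 20th percentile of spots within 7 rows and columns. Detection required 3 of 5 spots above the mean of empty spots by 3 SDs. Intensities were corrected with normexp (offset 50) and normalized by loess (span 0.3, control spots at weight 0), spots were averaged, and log2 ratios were fitted with limma 3.58.1 in R 4.3.3 (lmFit and eBayes, 1 residual and 2.08 prior degrees of freedom). Levels per sample used Aquantile. The 172 probes that both samples of 1 stage or the other detected entered the two-sided test, at a Benjamini-Hochberg adjusted p of 0.05. Detected spikes (15 of 43) gave the spike centre. With 2 arrays the number of samples limits precision, and an exact permutation test of 2 against 2 could not go below p = 0.333. The procedure was tested on simulated data with as many probes raised as lowered. That simulation had no shift of the bulk and no spike centring, so it cannot show which scaling is right.

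The series' design text describes dual-colour dye-swap hybridisations, so a replicate number was taken as 1 array and blocks the fit by construction. Deviations of same-numbered samples had a correlation of 0.343, equal for both numbers by construction. The members, lists and tests were chosen with earlier results of these data known. Named miRNAs are the members, probes of the same seed, the 5 closest in pattern to miR-130a, and up to 4 per list by mean signal. A further list of miRNAs is not reported here.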

Additional observations from a re-analysis of the deposited data

How the results depend on the processing

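The values and calls for miR-130a describe a member chosen from this contrast and are no independent evidence for it. Its ratio was negative on both arrays with an offset of 16, with the other 3 backgrounds, with quantile normalization, with loess on detected probes, with the medians of spots and in the authors' table. Filters and moderation leave the ratio itself as it is. It ranged from -1.25 to -1.14 when each sample was left out of the fit and stood at -1.18 and -1.20 on either array alone. The levels had been normalized with all 4 samples, so a sample left out still shaped the rest. That range is therefore narrow in part by construction. Without the replicate block it stayed at -1.19, with 32 probes called higher and 27 lower. It was no longer called with median centring, negative on both arrays (-0.85; 47 higher and 13 lower), or with spike centring without loess (-0.27; 78 and 7), 5S centring (-0.36; 47 and 6) and spike centring (0.044; 117 and 8), where the arrays differed in sign. The cause was not tested.

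Alternatives chosen after the data were seen gave -0.60 with plain subtraction and spike centring (112 higher and 11 lower), -0.16 with an offset of 16 and spike centring (123 and 12), -0.88 with plain subtraction, spike centring and no loess (60 and 6), -0.88 with 5S centring and no loess (18 and 3) and 0.21 with the mean of spikes (138 and 8), none of them called for miR-130a. Division by the mean miRNA signal gave -2.31 and by the median spike signal -0.85, without a test.

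Counts of calls, 29 higher and 23 lower, also moved with an offset of 16 (46 and 43), plain subtraction (45 and 41), no local background (48 and 45), loess on detected probes (54 and 41), quantile normalization (54 and 45) and the authors' table (48 and 56). Fewer were called lower with all probes tested (13) and among those brighter than the median (13), and fewer higher among probes detected in all 4 samples (18). Leaving out a sample gave 26 to 40 higher and 21 to 32 lower. A lone sample of a stage is then assumed to vary like the other stage. The share of calls that were higher was 55.8%, and 93.6% with spike centring. The dim signal of miR-130b, miR-301a and miR-301b limits what can be read from their ratios.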
